A study of Macaca fascicularis with 2 samples.

Results

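The genes described here encode 6 chains of the T cell receptor (TCR) and its CD3 complex, *CD3D*, *CD3E*, *CD3G*, *CD247*, *TRAC* and *TRGC2*. They were taken by symbol from the 29324 genes of the deposited table, and each symbol matched 1 row. The match used no measured value, but the genes were chosen with earlier results of these data known. The cells had been isolated as double-positive (DP) T cells, which carry CD4 as well as CD8. They came from the blood of 1 untreated cynomolgus monkey (*Macaca fascicularis*), aged 10 years. CD4+ cells had been taken from fresh blood mononuclear cells with releasable magnetic beads, and CD8 beads were then used on these, so the cells are those that both beads retained. Antibody tags against CD4 and CD8α marked the cells before they were made into a 5′ gene expression library and a tag library, which share all 8953 droplet barcodes. With 1 animal and 1 preparation there is no replicate, so no difference below has a test, and every 95% interval covers counting error only.

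A T cell recognises antigen through a receptor made of a variable pair of chains, α with β or γ with δ, which has no signalling tail of its own. The CD3γ, CD3δ and CD3ε chains (*CD3G*, *CD3D*, *CD3E*) and the ζ chain (*CD247*) carry the signal into the cell through tyrosine motifs, and without them the receptor does not reach the surface. *TRAC* encodes the constant part of the α chain and *TRGC2* a constant part of the γ chain, and natural killer (NK) cells use ζ, together with the Fc receptor γ chain *FCER1G*, without CD3γ, CD3δ or CD3ε.

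Cells were divided by their tag counts into 4 gates, with thresholds of 144 UMIs (counted RNA or tag molecules, told apart by a random barcode) for the CD4 tag and 419 for the CD8 tag. Of 8830 cells kept, 5758 (65.2%) were CD4hiCD8lo, 2543 (28.8%) CD4hiCD8hi, 418 (4.73%) CD4loCD8hi and 111 (1.26%) CD4loCD8lo. The division is a cut through continuous values, and 704 cells lay within 10% of the CD8 threshold and 90 within 10% of the CD4 threshold. Median depth per cell was 2949.5, 3778, 3629.5 and 3696 gene UMIs in these gates. Levels are given as CPM, the UMIs of a gene per 1000000 gene UMIs summed over the cells of a group, so genes are compared between groups and not with each other. The RNA of the coreceptors followed the tags. *CD4* had 106 and 112 CPM in the CD4hi gates and 1.23 CPM (2 UMIs) in CD4loCD8hi cells, and *CD8A* had 45.6 CPM in CD4hiCD8lo, 274 in CD4hiCD8hi and 838 in CD4loCD8hi cells. *CD3E*, which defines T cells, had a UMI in 96.3% of the cells.

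The CD3 chains and *TRAC* were present at close levels in the 3 larger gates, whereas *TRGC2* differed many-fold. Of the 6 genes, 1 (*TRGC2*) was at least 2 times apart between CD4loCD8hi and CD4hiCD8lo cells, against 11.8% of the 9416 genes with at least 50 UMIs over both gates. The same gene alone passed this limit between CD4loCD8hi and CD4hiCD8hi cells, where 5.93% of genes did, and between CD4hiCD8hi and CD4hiCD8lo cells, where 5.69% did. The median log2 ratio of the 6 genes was 0.18, 0.12 and 0.05 in these comparisons, and that of all genes tested was 0.02, -0.02 and 0.05. These comparisons share gates, so they are not independent of each other.

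**Figure D1:**
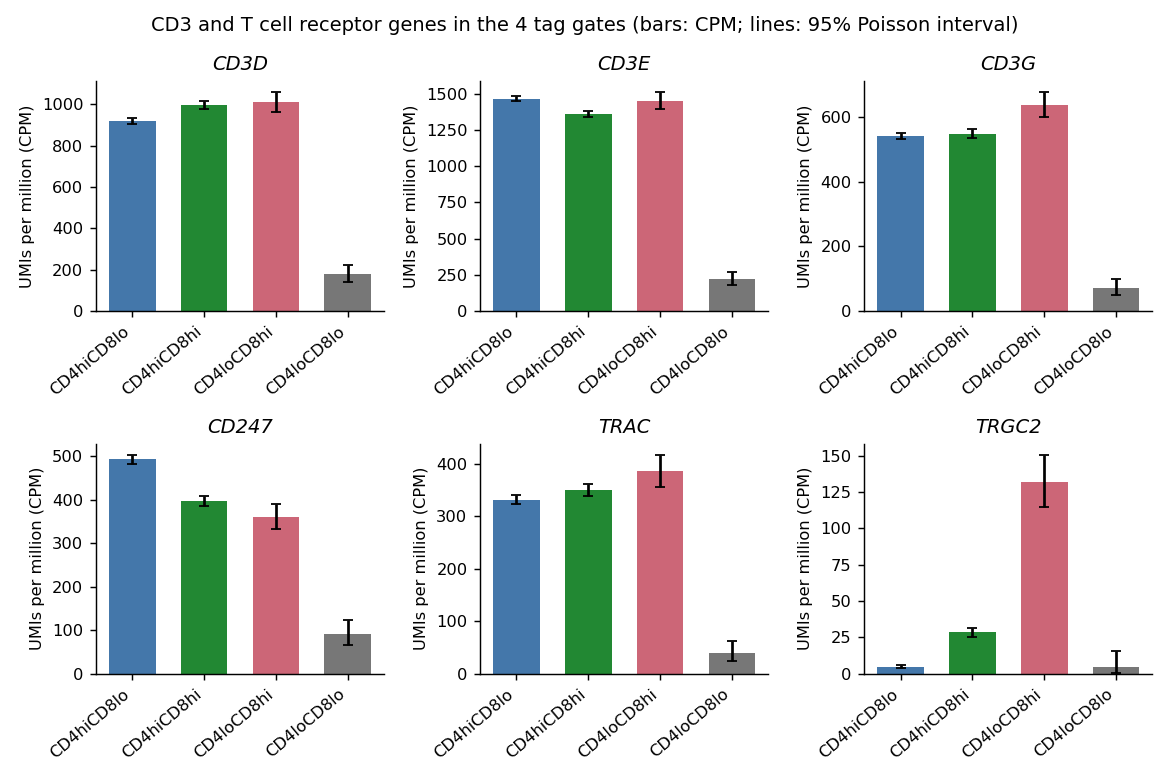
Level of each of the 6 genes (CPM, UMIs per 1000000 gene UMIs, linear axes from 0) in the 4 tag gates, with 95% Poisson intervals for counting error. *CD3D*, *CD3E*, *CD3G* and *TRAC* were close in the 3 larger gates and low in CD4loCD8lo cells, *CD247* was at 493, 397.5 and 360.4 CPM, and *TRGC2* was at 4.97, 28.5 and 132 CPM (the order of *CD247* between the CD4hi gates turns when depth is not divided out).

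*CD3E*, the ε chain, which pairs with both δ and γ, was at 1465 CPM (interval 1448 to 1483) in CD4hiCD8lo, 1358 (1336 to 1379) in CD4hiCD8hi and 1452 (1394 to 1512) in CD4loCD8hi cells. Its log2 ratio of CD4loCD8hi to CD4hiCD8lo cells was -0.01 (-0.07 to 0.05). *CD3D*, the δ chain, was at 919.5, 997 and 1009 CPM in the same order, and *CD3G*, the γ chain of CD3, at 542, 549 and 638 CPM. The 2 CD8hi gates did not differ in *CD3D* beyond counting error (log2 0.02, -0.06 to 0.09), while *CD3G* was higher in CD4loCD8hi cells by a log2 ratio of 0.22 (0.12 to 0.31). *TRAC* was at 332 CPM (324 to 340) in CD4hiCD8lo, 349.7 (339 to 361) in CD4hiCD8hi and 386 (357 to 418) in CD4loCD8hi cells. With UMIs per cell in place of CPM, every log2 ratio moves by the ratio of depths, 0.29, -0.18 and 0.48, in the 3 comparisons in the order given above. Under that scaling the ratio of CD4loCD8hi to CD4hiCD8hi cells turned from 0.02 to -0.17 for *CD3D*, from 0.10 to -0.09 for *CD3E* and from 0.14 to -0.04 for *TRAC*. *CD3E* also turned from -0.01 to 0.28 between CD4loCD8hi and CD4hiCD8lo cells and from -0.11 to 0.37 between the CD4hi gates. Without the CD8A-high cytotoxic and innate-like clusters described later, a setting chosen after the data were seen, the ratio of CD4loCD8hi to CD4hiCD8hi cells turned to -0.28 for *CD3G*, -0.27 for *CD3D*, -0.05 for *CD3E* and -0.08 for *TRAC*, and the ratio of CD4loCD8hi to CD4hiCD8lo cells from 0.13 to -0.18 for *CD3D*, from 0.24 to -0.30 for *CD3G* and from 0.22 to -0.01 for *TRAC*.

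*CD247* had another order. It was at 493 CPM (483 to 503) in CD4hiCD8lo, 397.5 (386 to 409) in CD4hiCD8hi and 360.4 (332 to 391) in CD4loCD8hi cells, a log2 ratio of the last to the first of -0.45 (-0.57 to -0.33). Between CD4hiCD8hi and CD4hiCD8lo cells the log2 ratio was -0.31 (-0.36 to -0.26), and 0.17 with UMIs per cell. Counted per 100 *CD3E* UMIs, which needs no division by depth, *CD247* was at 33.6 (32.8 to 34.5), 29.3 (28.3 to 30.3) and 24.8 (22.6 to 27.2) in the 3 gates. Within CD4hi cells it went from 501 CPM at CD8 tag counts of 105 to 210 to 422 at 419 to 838 and to 348 (321 to 376) at 1676 or more. The 36 CD4hi cells with a CD8 tag below 105 went the other way, with 374 CPM (256 to 528). Median depth went from 2899 to 3495 and 5976 UMIs in the first 3 of these bins, and the part of depth was not tested. The ζ chain was the CD3 complex gene with the lowest ratio of CD4loCD8hi to CD4hiCD8lo cells, and it did not pass the limit of 2 times.

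*TRGC2* had 91 UMIs in CD4hiCD8lo, 321 in CD4hiCD8hi, 215 in CD4loCD8hi and 2 in CD4loCD8lo cells. This is 4.97 CPM (interval 3.998 to 6.10), 28.5 CPM (25.5 to 31.8), 132 CPM (115 to 151) and 4.43 CPM (0.536 to 16.0), and the intervals of the first 3 gates are apart. CD4loCD8hi cells were 26.5-fold above CD4hiCD8lo cells (20.7 to 34.3) and 4.62-fold above CD4hiCD8hi cells (3.87 to 5.51), and CD4hiCD8hi cells were 5.74-fold above CD4hiCD8lo cells (4.53 to 7.33). Without the CD8A-high cytotoxic and innate-like clusters, these log2 ratios went from 4.73 to 2.43, from 2.21 to 0.42 and from 2.52 to 2.01. CD4loCD8hi cells were 4.73% of all cells and held 34.2% of all *TRGC2* UMIs. Of these 418 cells, 41 had 1 UMI, 8 had 2 and 28 had 3 or more, and the 28 held most UMIs of the gate. The counting intervals do not cover this uneven spread over cells. Reads of *TRGC2* may be shared with its near-identical paralogue *TRGC1*, which was not among the symbols, so its level is uncertain to that extent. *TRBC1*, *TRBC2* and *TRDC* were likewise not analysed here.

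Relative to *TRAC*, *TRGC2* was at 1.496 UMIs per 100 *TRAC* UMIs (1.203 to 1.84) in CD4hiCD8lo, 8.15 (7.25 to 9.13) in CD4hiCD8hi and 34.1 (29.1 to 39.9) in CD4loCD8hi cells. The ratio was thus 22.8-fold higher in CD4loCD8hi than in CD4hiCD8lo cells (log2 4.51, 4.14 to 4.88) and 4.19-fold higher than in CD4hiCD8hi cells (log2 2.07, 1.79 to 2.34). Without the CD8A-high cytotoxic and innate-like clusters these log2 values were 2.44 and 0.50. In CD4loCD8lo cells it rested on 2 *TRGC2* and 18 *TRAC* UMIs (11.1, 1.2503 to 46.4), an interval that holds the values of the other 3 gates.

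**Figure D2:**
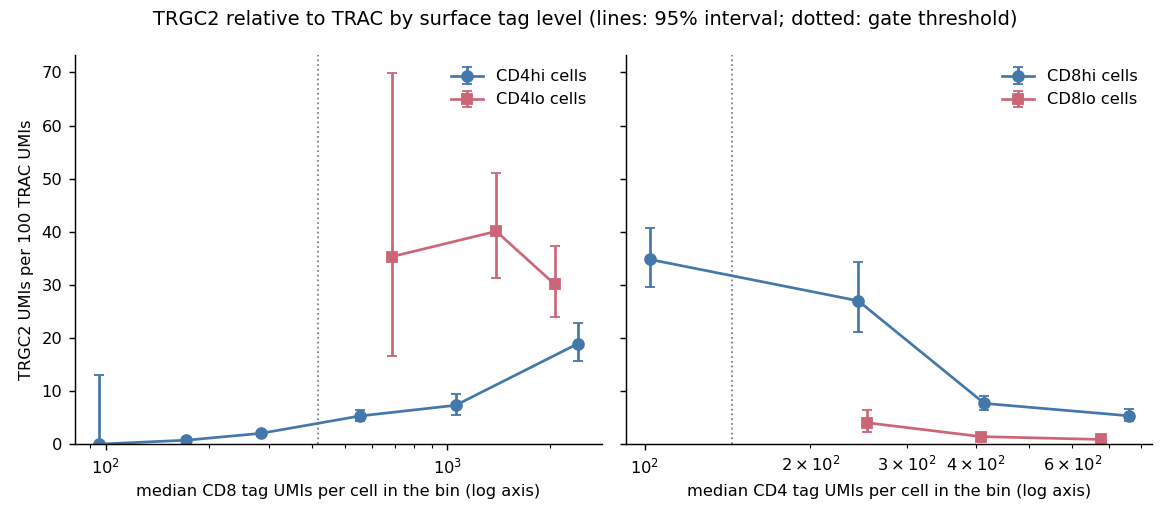
*TRGC2* UMIs per 100 *TRAC* UMIs (linear axis) against the median tag count of each bin (log axis), by CD8 tag in CD4hi and CD4lo cells on the left and by CD4 tag in CD8hi and CD8lo cells on the right, where bins are doublings of the gate thresholds with at least 30 *TRAC* UMIs, and lines are 95% counting intervals. In CD4hi cells the ratio was 0.737 at CD8 tag counts of 105 to 210 and 18.9 at 1676 or more, and in CD8hi cells it was 34.8 at CD4 tag counts of 72 to 144 and 5.34 at 576 or more.

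The ratio of *TRGC2* to *TRAC* followed both tags. In CD4hi cells it went from 0.737 per 100 *TRAC* UMIs (0.436 to 1.17) at CD8 tag counts of 105 to 210 through 2.02 and 5.30 to 7.31 (5.53 to 9.50) at 838 to 1676, and to 18.9 (15.6 to 22.8) at 1676 or more. Median depth in these bins was 2899, 3012, 3495, 4455 and 5976 UMIs, against 3621 in CD4lo cells of the highest CD8 tag bin, and the part of depth or of doublets was not tested. In CD4lo cells with a CD8 tag of 419 or more it was 35.3, 40.1 and 30.1 in the successive bins, with overlapping intervals. In CD8hi cells it was 34.8 (29.6 to 40.7) at CD4 tag counts of 72 to 144, 27.0 (21.1 to 34.3) at 144 to 288, 7.67 (6.37 to 9.15) at 288 to 576 and 5.34 (4.33 to 6.52) above that. The bins on either side of the CD4 threshold had overlapping intervals, and the interval of the next bin up lay below both.

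*TRGC2* was a low count in most cells that had it. A UMI was found in 360 cells, of which 262 had 1, 44 had 2 and 54 had 3 or more, with at most 11. Of the last 54 cells, 28 were CD4loCD8hi. After each cell was thinned to 2200 UMIs, so that depth was equal, *TRGC2* had a UMI in 0.713% (0.503 to 0.982%) of CD4hiCD8lo, 4.69% (3.88 to 5.62%) of CD4hiCD8hi and 14.5% (11.2 to 18.3%) of CD4loCD8hi cells, and without thinning in 1.23%, 8.26% and 18.4%. Thinning left out 570, 136 and 17 shallower cells of these gates. In B-like cells, which should lack the gene, the thinned share was 1.88% (3 of 160 cells, 0.388 to 5.38%). Their median depth before thinning was 5092 UMIs. Doublets were not removed, and their part in this share was not tested: of the 12 *TRGC2* UMIs of B-like cells 7 lay in CD4hiCD8hi and 4 in CD4loCD8hi cells, and the 68 B-like cells of CD4loCD8lo had 0. The share in CD4hiCD8lo cells is not above that of B-like cells. Of the 91 *TRGC2* UMIs of that gate 56 lay in the CD4 CTL-like cells described later. Over all gates 1 of 2182 thinned naive-like cells (0.0458%, up to 0.255%) had a UMI. Their cluster had a median depth of 2661 UMIs before thinning.

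The small CD4loCD8lo gate was low in every CD3 gene and in *TRAC*. *CD3D* was at 177 CPM, *CD3E* at 224, *CD3G* at 70.9, *CD247* at 90.8 and *TRAC* at 39.9. Of its 111 cells, 68 (61.3%) were B-like, against 1.04% to 1.44% in the other gates, and 2 of its cells held erythroid genes that alone made 9975 CPM of the gate. Without the B-like cells the log2 ratio to CD4hiCD8lo cells went from -2.38 to -0.58 for *CD3D*, from -2.71 to -0.87 for *CD3E*, from -2.93 to -1.22 for *CD3G*, from -2.44 to -0.59 for *CD247* and from -3.06 to -1.57 for *TRAC*, over the 43 cells that remained.

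Markers of other cell types moved with the gates too. The 7 B cell markers summed to 149, 94.2, 207 and 4612 CPM in CD4hiCD8lo, CD4hiCD8hi, CD4loCD8hi and CD4loCD8lo cells. The 5 monocyte markers summed to 67.1, 103, 6.13 and 334 CPM. The 6 NK markers measured summed to 37.9 CPM in CD4hiCD8lo, 94.8 in CD4hiCD8hi and 546 in CD4loCD8hi cells, where *KLRF1* (119.5 CPM), *NCR1* (21.5), *FCER1G* (175), *TYROBP* (222.5) and *SH2D1B* (7.97) had UMIs and *NCAM1* was at 0. Of the 4 γδ T cell markers measured, only the variable segment *TRGV10* had UMIs in CD4loCD8hi cells, with 96.8 CPM against 16.0 in CD4hiCD8lo and 63.6 in CD4hiCD8hi cells, while *TRDV3*, *SOX13* and *RHEX* were at 0 there. The part of any of these cell types in the *TRGC2* values was not tested.

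Cells were then grouped by all other genes. The 6 genes, every other TCR gene with a symbol and the tags were kept out of this clustering, so that the levels by cluster are not fixed by it, although genes known only by an identifier could not be kept out in this way. There were 16 clusters, named from marker lists after the clusters had been seen, and clusters 2, 4 and 12 were left unnamed. Clusters 0 and 1, of 2529 and 1541 cells, were naive-like with 6 of 6 markers carried. Clusters 3 (856 cells) and 5 (434 cells) both carried 7 of 7 markers of the CD4 CTL and of the CD8 CTL list, that is, of cytotoxic CD4 and CD8 T cells. The mean log2 ratios of these lists were 3.23 and 2.22 in cluster 3, called CD4 CTL-like here, and 3.02 and 2.90 in cluster 5, called CD8A-high cytotoxic. Cluster 13 (54 cells) was innate-like with 8 of 8 markers, and it also carried 5 of 6 NK markers with a slightly higher mean log2 ratio (4.65 against 4.42). Cluster 10 (162 cells) was B-like.

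*CD3D* and *CD3G* were higher in the cytotoxic clusters than in naive-like cells, and *CD247* had its highest value in innate-like cells. In the low depth cluster the log2 ratio of *CD247* to naive-like cluster 0 was 0.19 (-0.11 to 0.47), not apart beyond counting error. *CD3D* was at 885 CPM (863 to 908) in naive-like cluster 0, 1374 (1334 to 1415) in CD4 CTL-like, 1289 (1220 to 1360) in Eomes+ Tr1-like and 1249 (1202 to 1297) in CD8A-high cytotoxic cells, and the last 2 did not differ beyond counting error. *CD3G* was at 519 CPM (502 to 536) in naive-like cluster 0, 868 (836 to 901) in CD4 CTL-like and 776 (739 to 814) in CD8A-high cytotoxic cells. *CD3E* spanned a narrower range, from 1077 CPM (977 to 1186) in cycling and 1126 (1061 to 1195) in Th2-like to 1661 (1607 to 1716) in CD8A-high cytotoxic cells, leaving aside B-like, monocyte-like, innate-like and unnamed clusters. Its level in CD4 CTL-like cells (1540) was that of naive-like cluster 0 (1554) within counting error.

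**Figure D3:**
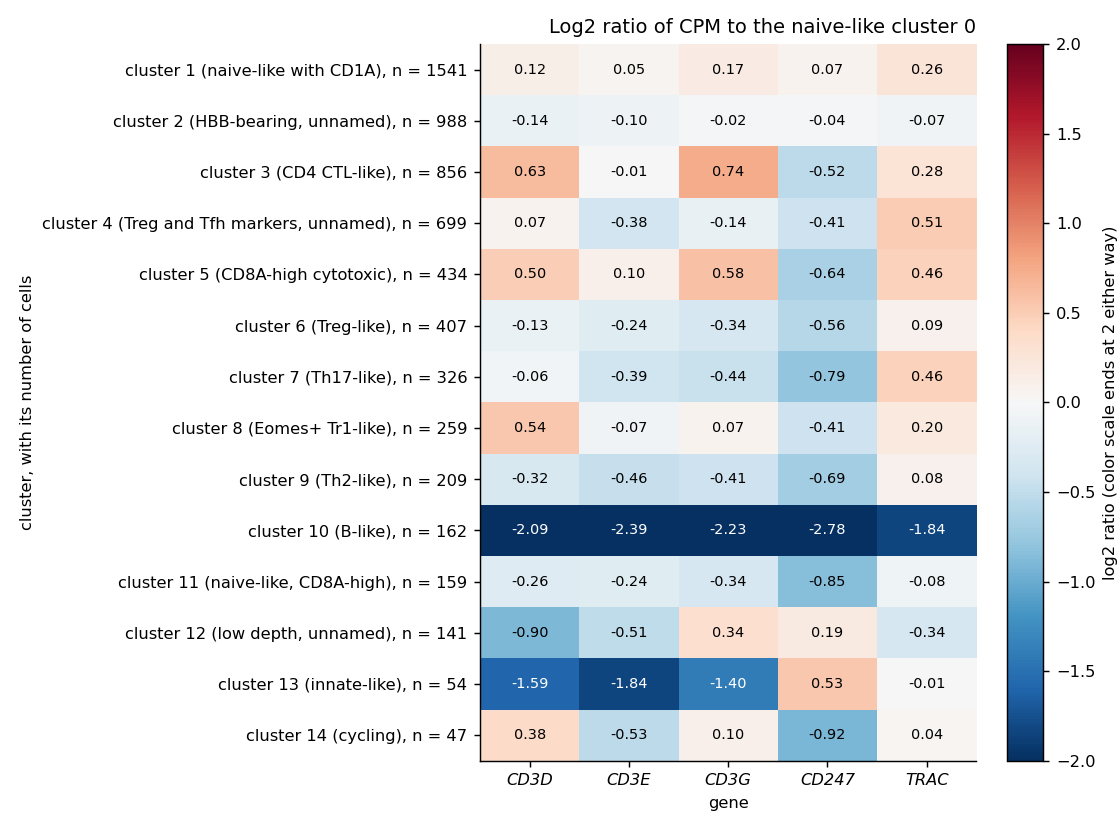
Log2 ratio of CPM to the naive-like cluster 0 for *CD3D*, *CD3E*, *CD3G*, *CD247* and *TRAC* (columns) in each other cluster of at least 47 cells (rows, with the number of cells), red for higher and blue for lower. *CD3D* and *CD3G* were higher and *CD247* lower in clusters 3 and 5, all 5 genes were low in B-like cells, and in innate-like cells the 3 CD3 chains were low while *CD247* was at 0.53 and *TRAC* at -0.01.

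*CD247* was lower in the cytotoxic clusters than in naive-like clusters 0 and 1, whereas *CD3D* and *CD3G* were higher in the cytotoxic ones. In Treg-like, Th17-like, Th2-like and naive-like CD8A-high cells *CD3G* was below naive-like cluster 0 as well (log2 -0.34 to -0.44). *CD247* was at 539.5 CPM (522 to 557) and 568 (548 to 588) in naive-like clusters 0 and 1, 376 (355 to 398) in CD4 CTL-like, 345 (321 to 371) in CD8A-high cytotoxic, 333 (298 to 372) in Th2-like, 311 (286 to 339) in Th17-like and 298 (258 to 343) in naive-like CD8A-high cells. Per 100 *CD3E* UMIs it was 34.7 (33.4 to 36.1) in naive-like cluster 0, 24.4 (22.9 to 26.0) in CD4 CTL-like and 20.8 (19.2 to 22.5) in CD8A-high cytotoxic cells. Within a naive-like cluster the gates did not differ in *CD247* beyond counting error, with a log2 ratio of CD4hiCD8hi to CD4hiCD8lo cells of -0.004 (-0.13 to 0.12) in cluster 0 and -0.06 (-0.19 to 0.07) in cluster 1, and in CD4 CTL-like cells it was 0.16 (-0.02 to 0.33). In cluster 4 *CD247* was lower in CD4hiCD8hi cells, by a log2 ratio of -0.21 (-0.37 to -0.06). Naive-like clusters 0 and 1 made up 36.5% and 22.0% of CD4hiCD8lo and 16.4% and 10.5% of CD4hiCD8hi cells, with 5 cells each in CD4loCD8hi.

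*TRAC* was at 299.8 CPM (287 to 313) in naive-like cluster 0, 363 (343 to 385) in CD4 CTL-like, 412 (385 to 440) in CD8A-high cytotoxic and 413.5 (384 to 445) in Th17-like cells. Its highest level, 428 CPM (406 to 451), was in cluster 4, which carried both Treg and Tfh markers, and the last 3 did not differ beyond counting error. B-like cells had 83.8 CPM of *TRAC*, 208 of *CD3D* and 297 of *CD3E*, and 72.5% of them after thinning (116 of 160) had no UMI of *CD3D*, *CD3E* or *CD3G*, against 0 of 426 CD8A-high cytotoxic cells, which allows up to 0.862% by the exact interval.

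Most *TRGC2* UMIs lay in 3 clusters. CD8A-high cytotoxic cells held 39.9% of its UMIs, CD4 CTL-like cells 27.3% and the 54 innate-like cells 12.7%, while naive-like clusters 0 and 1 and cluster 2 together, which made up most of the cells, had 1, 3 and 0 UMIs. Its level was 309 CPM (245 to 385) in innate-like, 117 (103 to 132) in CD8A-high cytotoxic, 56.6 (35.5 to 85.6) in cycling and 53.9 (46.2 to 62.6) in CD4 CTL-like cells, and the last 2 did not differ beyond counting error. Th17-like cells followed with 17.7 CPM (12.01 to 25.1). *TRGC2* did not enter the clustering, and it is among the 10 leading genes of cluster 5, as is ENSMFAG00000030148, a gene without a symbol that was not kept out and had a like pattern across clusters.

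Per 100 *TRAC* UMIs, *TRGC2* was at 103.9 (75.0 to 144) in innate-like cells, with 80 UMIs of *TRGC2* and 77 of *TRAC*. It was 28.3 (24.5 to 32.6) in CD8A-high cytotoxic, 18.3 (11.1 to 29.1) in cycling, 14.8 (12.6 to 17.4) in CD4 CTL-like and 4.28 (2.88 to 6.12) in Th17-like cells. Eomes+ Tr1-like (3.44), Th2-like (2.27) and cluster 4 cells (2.12) had overlapping intervals. B-like cells had 14.3 (7.10 to 26.3), from 12 *TRGC2* and 84 *TRAC* UMIs. The lowest were Treg-like cells with 0.435 (0.0525 to 1.58), naive-like clusters 1 and 0 with 0.153 and 0.0484 (0.00122 to 0.270), and cluster 2, which had 0 *TRGC2* against 822 *TRAC* UMIs (up to 0.450 by the exact interval).

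**Figure D4:**
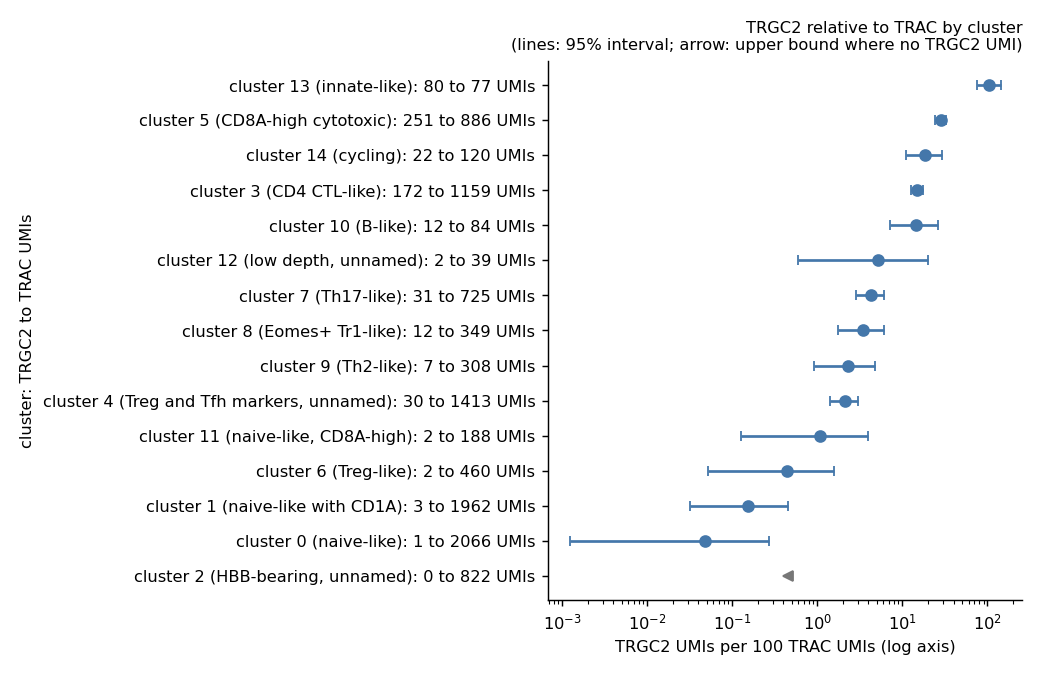
*TRGC2* UMIs per 100 *TRAC* UMIs (log axis) in each cluster of at least 47 cells, ordered by the ratio, with the UMIs of both genes, where lines are 95% counting intervals and the arrow is the upper bound of the cluster with no *TRGC2* UMI. Innate-like cells were at 103.9, CD8A-high cytotoxic cells at 28.3 and CD4 CTL-like cells at 14.8, while naive-like clusters 0 and 1 were at 0.0484 and 0.153.

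The clusters behind the *TRGC2* of each gate differed. In CD4hiCD8lo cells 61.5% of its UMIs lay in CD4 CTL-like cells, which were 5.75% of the gate. In CD4hiCD8hi cells 35.2% lay in CD4 CTL-like and 31.2% in CD8A-high cytotoxic cells (19.98% and 7.94% of the gate). In CD4loCD8hi cells 68.4% lay in CD8A-high cytotoxic and 22.3% in innate-like cells (47.4% and 8.13% of the gate). The other large group of that gate, 115 naive-like CD8A-high cells (27.5%), had 0 *TRGC2* against 122 *TRAC* UMIs, up to 3.07 per 100 by the exact interval, so *TRGC2* was not found in these cells despite their low CD4 and high CD8 tags.

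Within CD8A-high cytotoxic cells the gates differed in the CPM of *TRGC2*, while the CD8hi gates had about as many cells with a UMI. Within CD4 CTL-like cells the interval of the ratio spanned 0 on the log2 scale. In CD8A-high cytotoxic cells *TRGC2* was at 17.6 CPM (3 UMIs in 32 cells) in the CD4hiCD8lo, 79.7 CPM in the CD4hiCD8hi and 204 CPM in the CD4loCD8hi gate, and the log2 ratio of the last 2 was 1.35 (0.98 to 1.74). Per 100 *TRAC* UMIs this was 4.17 (0.840 to 12.7), 20.8 (16.6 to 25.8) and 44.5 (36.4 to 54.3). *CD3D*, *CD3E* and *CD3G* were also higher in CPM in the CD4loCD8hi cells of this cluster than in its CD4hiCD8hi cells, by log2 ratios of 0.23 (0.12 to 0.35) for *CD3D*, 0.24 (0.14 to 0.34) for *CD3E* and 0.41 (0.27 to 0.56) for *CD3G*. The CD4hiCD8hi cells of this cluster were deeper, and with UMIs per cell each of these ratios would turn the other way. *CD247* was at 305 CPM in the CD4loCD8hi, 354 in the CD4hiCD8hi and 447 in the CD4hiCD8lo cells of this cluster, a log2 ratio of -0.21 (-0.45 to 0.02) for the first to the second and -0.55 (-0.93 to -0.16) for the first to the third. In CD4 CTL-like cells *TRGC2* was at 47.6 CPM (35.9 to 61.8) in CD4hiCD8lo and 57.2 (47.2 to 68.8) in CD4hiCD8hi cells, a log2 ratio of 0.27 (-0.21 to 0.76), and *TRAC* at 396 and 347 CPM. Without the CD8A-high cytotoxic and innate-like clusters, a setting chosen after the data were seen, the *TRGC2*-to-*TRAC* ratio of CD4loCD8hi to CD4hiCD8hi cells went from a log2 of 2.07 to 0.50, and *TRGC2* then no longer passed 2 times.

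The share of *TRGC2* cells with a *TRAC* UMI was 42.4% in innate-like, 65.3% in CD8A-high cytotoxic and 71.5% (63.2 to 78.9%) in CD4 CTL-like cells. The interval of the CD8A-high cytotoxic share overlapped both others. Cells were not thinned for these shares, and no background share was taken off. In innate-like cells *TRAC* had a UMI in 14 of 33 cells with *TRGC2* (42.4%, 25.5 to 60.8%) and in 12 of 21 without it (57.1%, 34.0 to 78.2%), and an α variable segment had one in 5 of the 33. *CD3D* was at 213 CPM (147 to 297) and 426 (307 to 575) in these groups, and *CD3G* at 125 (76.4 to 193) and 314 (213 to 446). In CD8A-high cytotoxic cells *TRAC* had a UMI in 62 of 95 cells with *TRGC2* (65.3%, 54.8 to 74.7%) and in 276 of 339 without it (81.4%, 76.9 to 85.4%), at median depths of 3755 and 4111 UMIs. As a level *TRAC* was at 361 CPM (309 to 420) in the former and 426 (395 to 458) in the latter. *CD3D* was at 1385 CPM (1280 to 1496) in cells with *TRGC2* and 1211 (1159 to 1265) in those without, and *CD3G* at 912 (827 to 1003) and 739 (698 to 781). Of the 29 cells of this cluster with 3 or more *TRGC2* UMIs, 19 had *TRAC*, all 29 had *CD3D*, *CD3E* and *CD3G*, and the median CD4 tag was 107 UMIs, against 198 in the 339 cells without *TRGC2*. The summed TCR α variable segments (23 with a symbol) were at 622 CPM (552 to 698) in the 95 cells with *TRGC2*, 346 (253 to 461) in the 29 with 3 or more UMIs and 591 (555 to 629) in the 339 without. A β variable segment (9 with a symbol) had a UMI in 10 of 95, 3 of 29 and 73 of 339 cells. The γ variable segment *TRGV10* had a UMI in 26.3% of the 95 and 22.7% of the 339 cells, at 258 and 95.5 CPM. With and without *TRGC2*, it was in 22.6% and 26.3% of CD4 CTL-like cells (167 and 105 CPM). In innate-like cells it was in 9.09% and 9.52% (138 and 91.2 CPM). Its highest ratio to naive-like cluster 0, which had 3 of its UMIs, was in Eomes+ Tr1-like cells (392-fold). Variable segment UMIs come in runs from single cells, so the intervals on their CPM are too narrow.

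In CD4 CTL-like cells *TRAC* was at 376 CPM (327 to 430) in the 137 cells with *TRGC2* and 361 (338 to 384) in the 719 without, with a UMI in 71.5% and 67.0% of them. *CD3D*, *CD3E* and *CD3G* did not differ beyond counting error by *TRGC2* in this cluster, with 1394 against 1370, 1618 against 1524 and 859 against 870 CPM, while *CD247* was at 432 (379.8 to 490) against 364 (342 to 388) CPM, with overlapping intervals. The CD4 tag had a median of 339 UMIs in both, and no cell with *TRGC2* had *FCER1G*.

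The δ chain was seen only through its variable segment *TRDV3*, with 39 UMIs in 16 cells, of which 13 had *TRAC* and 2 *TRGC2*. Both cells with *TRGC2* were CD8A-high cytotoxic, they held 16 of the 39 UMIs, and 1 of them had *TRAC*. No *TRDV3* UMI was found in CD4loCD8hi cells (0 of 418), which allows up to 2.26 CPM by the exact interval. *PTCRA*, the pre-TCR α chain of thymocytes, had 2 UMIs in all, both in CD4hiCD8lo cells.

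In the innate-like cluster the CD3 chains were low and ζ was high. Of its 54 cells, 34 were CD4loCD8hi and 18 CD4hiCD8hi. *CD3D* was at 294 CPM (232 to 368), *CD3E* at 433 (357 to 521) and *CD3G* at 197 (147 to 259), lower than in naive-like cluster 0 by log2 ratios of -1.59, -1.84 and -1.40. *TRAC*, at 298 CPM (235 to 372), was at the level of naive-like cells, and *CD247*, at 781 CPM (677 to 897), was above it (log2 0.53, 0.32 to 0.74). *FCER1G*, the chain that forms dimers with ζ in NK cells, was at 1481 CPM (1337 to 1637), against 0.313 in CD4 CTL-like cells and 0 UMIs in CD8A-high cytotoxic cells. Per 100 *CD3E* UMIs, *CD247* was at 180.4 (142 to 229), whereas the named T cell clusters lay between 20.8 and 35.2.

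**Figure D5:**
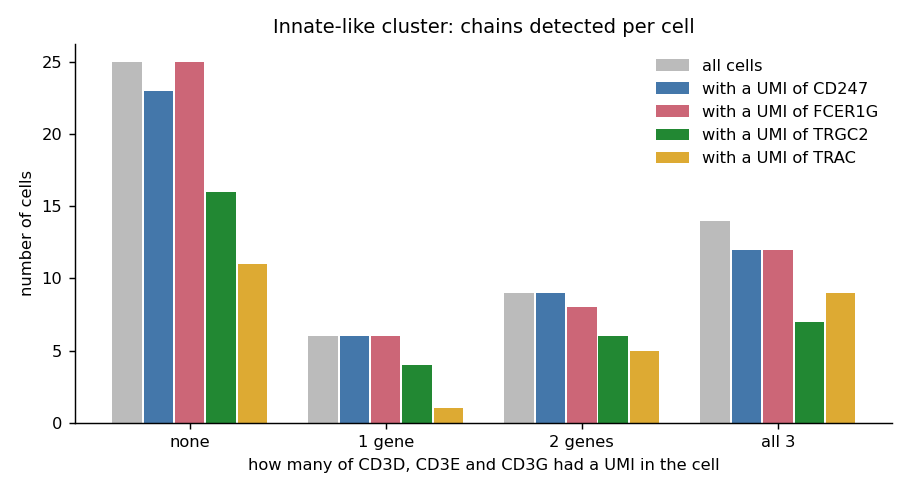
Number of innate-like cells (linear axis from 0) by how many of *CD3D*, *CD3E* and *CD3G* had a UMI in the cell, with the number that had a UMI of *CD247*, *FCER1G*, *TRGC2* and *TRAC*. Of the 25 cells with none of the 3 CD3 genes, 23 had *CD247*, 25 *FCER1G*, 16 *TRGC2* and 11 *TRAC*.

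Cells of this cluster differed in the chains found. In 25 of the 54 cells (46.3%, 32.6 to 60.4%) no UMI of *CD3D*, *CD3E* or *CD3G* was found, at a median depth of 3801 UMIs, and in 14 cells all 3 were found, at 6162.5 UMIs. After thinning, 28 of 54 had none (51.9%, 37.8 to 65.7%), against 72.5% of B-like and 0.183% of naive-like cluster 0 cells. The 25 cells held 96 UMIs of *CD247*, 214 of *FCER1G*, 41 of *TRGC2* and 21 of *TRAC*. They held 0 UMIs of the TCR α or β variable segments with a symbol. The 14 cells with all 3 CD3 genes held 47, 59, 12 and 34 UMIs of the same genes and 25 of α and 12 of β variable segments. The 13 innate-like cells with 3 or more *TRGC2* UMIs had 50 UMIs of *CD247* and 4, 2 and 6 of *CD3D*, *CD3E* and *CD3G*. *TRGC2* and *TRAC* constant gene UMIs in this cluster lay in part in cells where no *CD3D*, *CD3E* or *CD3G* and no such α or β segment was found. The γ variable segment *TRGV10*, with 31 UMIs in 5 cells of the cluster, was not counted by these groups. Whether these are NK cells was not tested. The cluster had 36 UMIs of *NCR1*, 14 of *SH2D1B* and 0 of *NCAM1*.

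Over the 14 clusters of at least 50 cells, the pattern of each gene was compared with that of 7354 genes as the Pearson correlation of log2(CPM + 5). The clusters share 1 library, and the low CD3 levels of 2 clusters (B-like and innate-like) weigh on these values, so they are descriptions only. *CD3D* was most like *CD3E* (0.93), *CD3G* (0.86) and *GIMAP7* (0.85), and *CD3E* most like *CD3D*, *CD3G* (0.92) and *P3H4* (0.87). *CD3G* was most like *GPR171* (0.93), the adaptor *LAT* (0.92) and *CD3E*. *TRAC* was most like *GIMAP6* (0.94), *GIMAP7* (0.92) and *FLT3LG* (0.87). *CD247* had 0.33 to *CD3D*, 0.46 to *CD3E*, 0.53 to *CD3G* and 0.66 to *TRAC*, and was most like *CDC37L1* (0.89), *CD59* (0.89) and *SIGIRR* (0.85). *TRGC2* was near 0 or negative to the other 5 genes (-0.37 to 0.11) and most like the gene ENSMFAG00000030148 (0.96), the NK receptor genes *KLRF1* (0.96) and *NCR3* (0.95), *RAD9A* (0.94) and *NUDT1* (0.94). Some of these are low genes, since *RAD9A* reached 30.9 CPM at most, in the 54 innate-like cells, and *P3H4* 36.5 CPM, in the low depth cluster, so their values rest on few UMIs. In the gates ENSMFAG00000030148 was at 5.84, 27.7 and 116 CPM and *KLRF1* at 6.002, 23.5 and 119.5 CPM in CD4hiCD8lo, CD4hiCD8hi and CD4loCD8hi cells, next to 4.97, 28.5 and 132 for *TRGC2*.

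Among the kinases and adaptors that act just behind the receptor, the share apart by 2 times was near that of all genes. Of 42 such genes 41 were tested, and between CD4loCD8hi and CD4hiCD8lo cells 4 were at least 2 times higher and 2 lower, where 11.8% of all genes passed in either direction, with a median log2 ratio of 0.17 against 0.02 for all genes. *LCK*, the kinase that phosphorylates the CD3 chains, was at 428 and 379 CPM (log2 0.18, 0.06 to 0.29). *ZAP70*, which binds the phosphorylated chains, was at 334 and 207 CPM (log2 0.69, 0.56 to 0.82), and *LAT*, which it phosphorylates, at 512 and 636 CPM (log2 -0.31, -0.42 to -0.21). The higher genes were the kinase *SYK* (25.1 and 9.22 CPM, 41 UMIs in CD4loCD8hi cells), the phosphatase *PTPN22* (61.9 and 20.3), and the adaptors *SH2D1A* (59.5 and 29.4) and *SH2D2A* (109 and 45.3). The lower ones were *TESPA1* (19.0 and 46.6) and the costimulatory receptor *CD28* (27.0 and 90.4). Between CD4loCD8hi and CD4hiCD8hi cells *SYK* (25.1 and 7.81) and *CD28* (27.0 and 69.8) passed the limit, and between CD4hiCD8hi and CD4hiCD8lo cells *SH2D2A* alone (116 and 45.3), where 5.93% and 5.69% of all genes did.

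Adaptors with the same kind of tyrosine motif or a related role, outside CD3, were at least 2 times higher in CD4loCD8hi than in CD4hiCD8lo cells in 3 of 3 genes, where 11.8% of all genes were apart by as much in either direction. Between the CD8hi gates 2 of 3 passed (*HCST* was at 1.75-fold), where 5.93% of all genes did. Between the CD4hi gates only *FCER1G* passed (2.90-fold), where 5.69% of all genes did. The levels that follow are for CD4loCD8hi and CD4hiCD8lo cells. *FCER1G* was at 175 and 9.77 CPM (17.9-fold), *TYROBP* at 222.5 and 21.7 CPM (10.2-fold) and *HCST* at 834 and 239 CPM (3.48-fold). The innate-like cluster held 383 of the 788 *FCER1G* UMIs of all cells and the 19 monocyte-like cells 348. Of these 19 cells, 9 were CD4hiCD8lo, 9 CD4hiCD8hi and 0 CD4loCD8hi. They held most of the *FCER1G* UMIs of the CD4hi gates, and the folds above include them.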

How the data were processed

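One preparation of cells gave a 5′ gene expression library and a tag library, read as 1 sample. The deposited counts are UMIs per gene and droplet barcode, and the submitters' processing notes name Seurat 3.1.3, STAR 2.5.1b and Cell Ranger 3.1.0. From the counts, 8830 cells were kept and 123 removed by limits of 200 and 4000 detected genes and of 20% of UMIs from mitochondrial genes. Gates followed the tag thresholds of 144 and 419. CPM has an exact Poisson interval and a ratio an exact binomial one, and intervals and limits cover counting error only. Depth was 2949.5 to 3778 UMIs per cell by gate, and shares were also taken after thinning each cell to 2200 UMIs. Clusters were made in Seurat 5.3.0 (R 4.3.3) from 2000 variable genes, 20 components and 20 neighbours at resolution 0.8. Left out were 42 genes, namely the CD3 and TCR genes described here, *PTCRA* and those whose symbol begins like that of a TCR gene. Scrublet called 0 doublets, so doublets were not removed. Other values came from Python 3.11.15, numpy 2.4.6, scipy 1.17.1, pandas 2.3.3 and scanpy 1.11.5. The ratios between gates and their intervals were checked on simulated Poisson counts. That check did not cover the other steps or the uneven spread of *TRGC2* over cells.

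The genes named are the 6 genes, the other genes of the TCR and CD3 list, those signalling and adaptor genes at least 2 times apart between gates, *LCK*, *ZAP70*, *LAT*, *CD4* and *CD8A*, and the genes most like each of the 6 by correlation among genes with at least 20 CPM in a cluster. Genes, lists and the named alternatives were chosen with earlier results of these data known. *KLRF1* and other NK markers are named from a fixed list. No genome was used, so no coordinates are given.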

Additional observations from a re-analysis of the deposited data

How the results depend on the processing

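With no replicate, a value is compared with its counting interval. Of 252 values under alternative settings (21 log2 ratios of the 6 genes and of *TRGC2* to *TRAC*), 60 lay outside the interval of the main value, and 21 changed sign, 0 of them in a ratio past 2 times. Of the 21, 6 came from UMIs per cell, which moves all genes alike, and 8 from leaving out the CD8A-high cytotoxic and innate-like clusters. The log2 change of *TRGC2* to *TRAC* between CD4loCD8hi and CD4hiCD8lo cells was 4.51, and it was 4.98 with both tag thresholds lowered by 20%, 4.96 as a mean over cells and 2.44 without the CD8A-high cytotoxic and innate-like clusters. Between CD4loCD8hi and CD4hiCD8hi cells it went from 2.07 to 2.35 with the lower thresholds and to 0.50 without those clusters, where the number of the 6 genes past 2 times went from 1 to 0. Between CD4hiCD8hi and CD4hiCD8lo cells it was 2.80 as a mean over cells and 1.94 without those clusters. Leaving out those clusters was chosen after seeing the data, and it removes most of the *TRGC2* UMIs of CD4loCD8hi cells by construction. The cause of the other shifts was not tested. At resolution 0.4 the CD4 CTL-like and CD8A-high cytotoxic clusters were joined, with 20.7 *TRGC2* per 100 *TRAC* UMIs, while innate-like cells stayed at 103.9. The share of all genes counted as apart was 27.0%, 16.3% and 14.6% at 1.5 times and 17.0%, 10.1% and 10.4% with at least 10 UMIs. No paired analysis was possible because there was 1 animal and 1 preparation.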
